A study of Homo sapiens with 12 samples.

Results

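The genes described here encode the YTH domain proteins YTHDF1, YTHDF2, YTHDF3, YTHDC1 and YTHDC2, the proteins that bind N6-methyladenosine (m6A) in RNA. The members are the intervals of 6 deposited m6A peak lists that share at least 1 bp, on the strand of the gene, with 1 of 5 hg19 gene windows. There were 48 such intervals of 53502 in all, and they belonged to 4 of the 5 genes. YTHDF1 had 13 intervals, YTHDF2 had 6, YTHDF3 had 9, YTHDC1 had 20 and YTHDC2 had none.

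The YTH domain holds a pocket that recognises the methyl group of m6A, so these proteins are called m6A readers. YTHDF1, YTHDF2 and YTHDF3 are closely related cytoplasmic proteins, of which YTHDF2 is best known for bringing methylated mRNA to deadenylation and decay. YTHDC1 acts in the nucleus on splicing and export, and YTHDC2 is an RNA helicase known mainly for its role in meiosis. Their own mRNAs can carry the mark that their proteins read.

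The cells were H460, an established wild-type human large cell lung cancer line. MeRIP-seq pulls down RNA fragments with an antibody to m6A and sequences them, with an input library as the reference. Per the labels, 12 libraries form 4 groups of 3, namely inputs and immunoprecipitates of untreated cells (replicates 1 to 3) and of cells given 100 nM rapamycin for 24 h to induce autophagy (replicates 4 to 6). The record ties all 6 lists to samples of untreated cells, 3 inputs and 3 immunoprecipitates. However, 3 lists were deposited under names with con and 3 under names with rapamycin. No list was therefore assigned to an arm, no treatment effect is given, and the lists are named by the letters A to F, following the order of those samples.

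Lists A, B and C held 12040, 14908 and 12288 intervals, and D, E and F held 4837, 4530 and 4899. A gene has more chances of an interval in a longer list. Read depth is unknown. Every value is that of 1 list, and no list is treated as a repeat of another, because none was assigned to an arm. The authors' deposited score is 1 number per interval on a scale not given in the sources used here. It starts at about 70 in every list and piles up at 3100, a value reached or passed by 3.74% (A), 11.8% (B), 10.0% (C), 1.47% (D), 1.57% (E) and 1.10% (F) of intervals. Scores are therefore also given as percentiles, the percentage of the same list's intervals that scored lower, with tied intervals sharing their mean rank.

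The 48 intervals fell on 12 regions, a region being the intervals of any list that overlap by at least 1 bp on the same strand. Of these, 4 regions were held by all 6 lists, 1 in each of YTHDF1, YTHDF2, YTHDF3 and YTHDC1. Over all 20742 regions of the series, 8.30% were held by all 6 lists. Another 2 of the 12 regions occurred in 1 list, against 36.9% of all regions. Every one of the 48 intervals lay wholly inside its gene window. On the opposite strand of the 5 windows the lists held 0 intervals. How the strand and extent of an interval were set is unknown here, so neither count is read as a result.

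**Figure D1:**
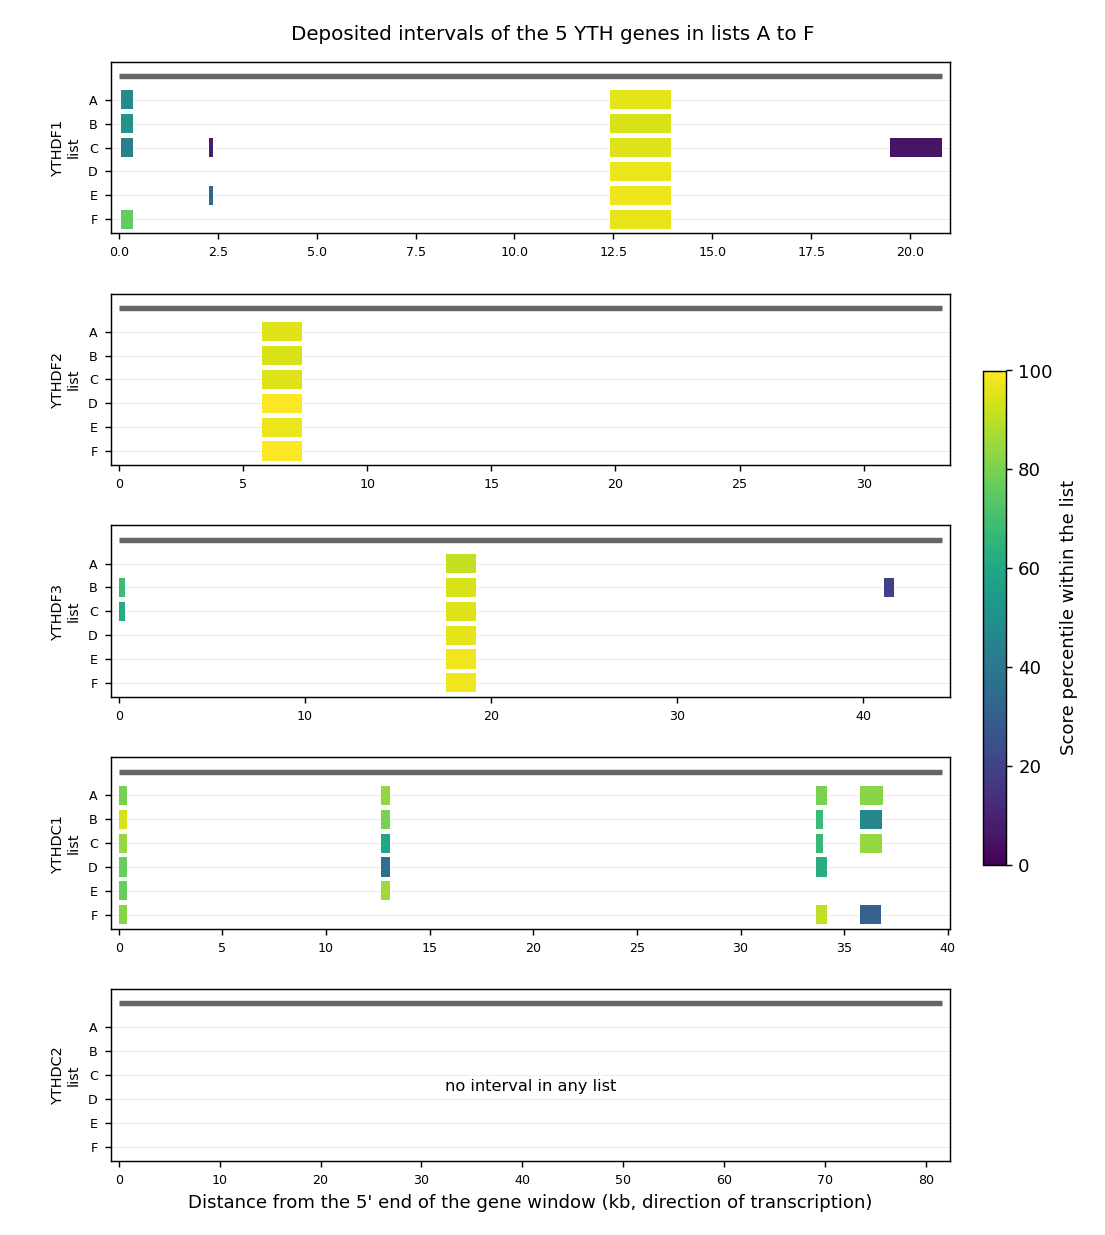
Position of every interval along the 5 YTH gene windows (x axis, kb from the 5' end in the direction of transcription, a separate scale per gene) in lists A to F (rows). The grey bar is the gene window and the colour is the score percentile within the list. The 3 YTHDF genes each have a wide, high-scoring interval that stands in the same place in all 6 lists, YTHDC1 has 4 smaller regions, and YTHDC2 is empty.

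Each YTHDF gene carried 1 wide internal interval that had exactly the same ends in all 6 lists. In YTHDF1 it was chr20:61833639-61835159 (minus strand), 1521 bp wide and 12.4 kb from the 5' end of the window. In YTHDF2 it was chr1:29068915-29070498 (plus strand), 1584 bp wide and 5.78 kb from the 5' end. In YTHDF3 it was chr8:64098706-64100303 (plus strand), 1598 bp wide and 17.6 kb from the 5' end. The widths of the 3 intervals thus differed by less than 100 bp, while the median interval of a list was between 452.5 and 829.5 bp wide. Most of the protein of each YTHDF gene is encoded in 1 long exon. Whether these intervals match that exon was not analysed here, because no exon annotation of hg19 was used. The 3 mRNAs are related in sequence, and the treatment of reads matching more than 1 of them is unknown here.

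For YTHDF1, linked to the translation of methylated mRNA, the internal interval scored 2961 (A), 3100 (B), 3100 (C), 2142 (D), 2316 (E) and 1515 (F). It stood at the pile-up value in B and C and was lowest in F. Within their lists these scores were at percentiles from 93.9 (B) to 97.3 (E), with a median of 96.2. In B and C the percentile is the mean rank of all intervals tied at 3100, and only 71 and 58 intervals scored higher there.

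For YTHDF2, the decay factor, the interval scored 2502 in A, 3100 in B, C, D and F, and 2254 in E. It was at the pile-up value in 4 of 6 lists. In D and F that value is rare, being reached or passed by 1.47% and 1.10% of intervals, and only 3 and 8 intervals scored higher there. Its percentiles were 99.2 in D, 99.4 in F, 97.1 in E, 94.9 in A, 94.8 in C and 93.9 in B. In B and C, 1680 and 1173 other intervals had the same score of 3100, so that the percentile there is that of the whole tie. In those lists 11.8% and 10.0% of intervals reached or passed 3100. This interval was the only one that any list held within the YTHDF2 window, and it covered 4.78% of the window's 33155 bp.

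For YTHDF3, a cytoplasmic partner of both other YTHDF proteins, the interval scored 1656 (A), 3100 (B), 3100 (C), 1705 (D), 2613 (E) and 1997 (F). It was at the pile-up value in B and C, as in YTHDF1. Its percentile was lowest in A (91.1) and highest in E (97.9), with a median of 95.3. In A, 1071 intervals scored higher, compared with 487 for the YTHDF1 interval and 609 for the YTHDF2 interval of that list.

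The order of the 3 YTHDF intervals was not the same in every list. By score it was YTHDF1, YTHDF2, YTHDF3 in A, YTHDF2, YTHDF1, YTHDF3 in D, YTHDF3, YTHDF1, YTHDF2 in E and YTHDF2, YTHDF3, YTHDF1 in F. In B and C all 3 were tied at 3100. Over the lists the score ran from 1515 to 3100 in YTHDF1, from 2254 to 3100 in YTHDF2 and from 1656 to 3100 in YTHDF3, so the ranges overlapped and gave the 3 genes no common order. Each of the 3 nevertheless scored above every YTHDC1 interval in lists A, C, D, E and F. In B the highest YTHDC1 interval was tied with them at 3100. Widths were not matched in this order, and no YTHDC1 interval was wider than 1080 bp.

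**Figure D2:**
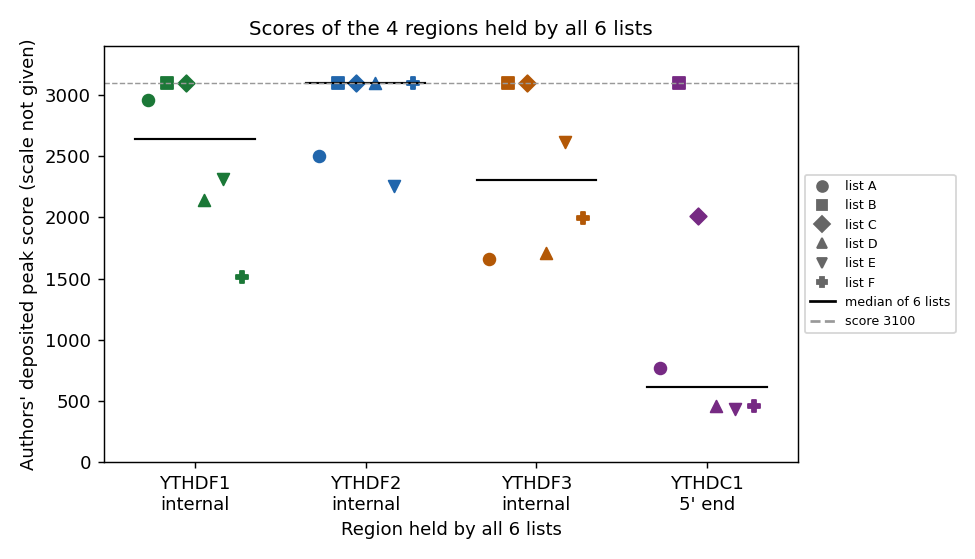
Authors' deposited score (y axis, linear, scale not given) of the 4 regions held by all 6 lists (x axis). Each symbol is the value of 1 list, black lines are medians over the 6 lists, and the dashed line marks the pile-up value of 3100. The YTHDF intervals lie between 1515 and 3100, and the YTHDC1 interval lies between 436 and 3100, with 4 of its 6 values under 1000.

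The YTHDF intervals were also set against intervals of their own list whose width was within 20% of theirs, a choice made after the data were seen. Against these 621 to 1628 intervals their percentiles ran from 89.2 to 98.2 in YTHDF1, from 89.0 to 99.5 in YTHDF2 and from 87.9 to 98.5 in YTHDF3. The lowest of these values was that of YTHDF3 in A and the highest that of YTHDF2 in F. Ranked in the same way, the highest YTHDC1 interval of B was at 96.9, above YTHDF1 (89.2), YTHDF2 (89.0) and YTHDF3 (88.9). In C the highest YTHDC1 interval was at 91.2, just below YTHDF1 (92.0), YTHDF2 (91.6) and YTHDF3 (91.6). In A, D, E and F every YTHDC1 interval also ranked below the 3 YTHDF intervals. The series had 306 regions with a width of 1500 to 1600 bp. All 6 lists held 14.4% of them, and 6.54% had equal ends in all 6. Over regions of any width the latter share was 4.73%.

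Besides the internal interval, YTHDF1 had 3 minor regions. The region next to its 5' end, chr20:61847218-61847538, was held by A, B, C and F, and scored 224 in A, 396 in B, 269 in C and 361 in F. Its percentiles were 47.4, 51.4, 43.3 and 76.1 in that order, so it ranked near the middle of A, B and C and higher in F. It began 48 to 69 bp inside the window's 5' end. A narrow region of 80 bp, chr20:61845216-61845295, was held by C with a score of 86.7 and by E with 122. The region at the 3' end, chr20:61826782-61828086, was held by C alone, with a score of 80.9, close to the lowest score of that list (70.02).

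YTHDF3 also had an interval at its 5' end, chr8:64081112-64081460, with scores of 857 in B and 566 in C. These stood at percentiles 68.3 and 61.5, and no other list held the region. The other region, chr8:64122241-64122740, lay 2.61 kb from the 3' end and was held by B alone with a score of 119.6. YTHDF2 had no interval at its 5' end in any list. None of the 5 regions that accompanied the internal intervals of YTHDF1 and YTHDF3 was held by all lists, and D held none of them.

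YTHDC1, the nuclear reader, had no single dominant interval but 4 regions spread along its 39720 bp window. The region at the 5' end, chr4:69215444-69215824 (minus strand, 381 bp), ended exactly at the 5' end of the window and had equal ends in all 6 lists. Its scores were 768 (A), 3100 (B), 2014 (C), 458 (D), 436 (E) and 460.5 (F). List B thus stood at the pile-up value and D, E and F were close together. The percentiles ranged from 77.1 (D) to 93.9 (B), with a median of 80.4, and against intervals of similar width from 81.1 to 96.9.

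The second region, chr4:69202745-69203168 (424 bp), lay 12.7 kb from the 5' end and was held by every list but F. It scored 971 (A), 1654 (B), 504 (C), 142 (D) and 675 (E), with equal ends in these 5 lists. In A and E it was the highest of the YTHDC1 intervals, and in C and D it was the lowest. Its percentiles ran from 37.3 in D to 85.8 in E, the widest range of the 3 YTHDC1 regions held by 5 or 6 lists.

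The third region, chr4:69181650-69182166, lay 33.7 kb from the 5' end and was held by every list but E. Its scores were 802 (A), 849.9 (B), 742 (C), 276 (D) and 796 (F). In F this was the highest YTHDC1 interval, at percentile 90.6, whereas in D it stood at 63.1. The fourth region, chr4:69178962-69180041, lay 2.86 kb from the 3' end of the window and was held by A, B, C and F. It scored 907 in A, 321 in B, 1905 in C and 114 in F. C was high and F low, and the percentiles of the 4 lists ran from 30.8 to 83.7.

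The YTHDC1 region with the highest score therefore differed between lists: it was the 5' region in B, C and D, the second in A and E, and the third in F. The 3 YTHDF genes had the highest score at the same internal interval in every list. The YTHDC1 intervals of a list together covered 2402 bp (A), 2169 bp (B), 2177 bp (C), 1308 bp (D), 805 bp (E) and 1880 bp (F). The gene was thus covered least in E, the shortest list.

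**Figure D3:**
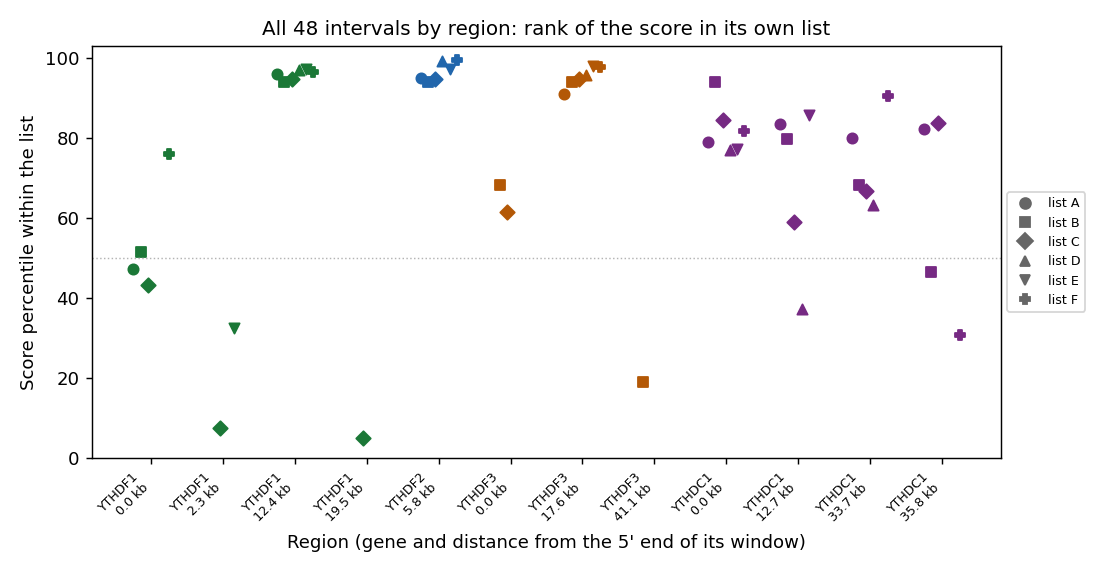
Score percentile within the list (y axis) of all 48 intervals, grouped by region (x axis, gene and distance of the region from the 5' end of its window in kb). Symbols are lists A to F and the dotted line marks percentile 50. The internal YTHDF intervals lie between 91.1 and 99.4, and the minor YTHDF1 and YTHDF3 regions lie between 5.06 and 76.1. The YTHDC1 intervals lie between 30.8 and 93.9.

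Intervals of different lists mostly shared their ends. Of the 10 YTH regions held by 2 or more lists, 6 had both ends equal in every list that held them, and in 4 exactly 1 end was equal. Over all regions of 2 or more lists these shares were 57.4% and 35.9%, so the YTH regions were near the level of the series. All 4 YTH regions held by 6 lists had both ends equal, against 57.0% of the 1722 such regions in the series. In the regions at the 5' ends of YTHDF1 and YTHDF3, the downstream end was fixed and the upstream end moved by 21 and 11 bp. In the YTHDC1 regions that lay 33.7 and 35.8 kb from its 5' end, the upstream end was fixed, and the downstream end moved by 184 and 84 bp. The third region was 517 bp wide in A, 503 bp in D and F, 334 bp in B and 333 bp in C.

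**Figure D4:**
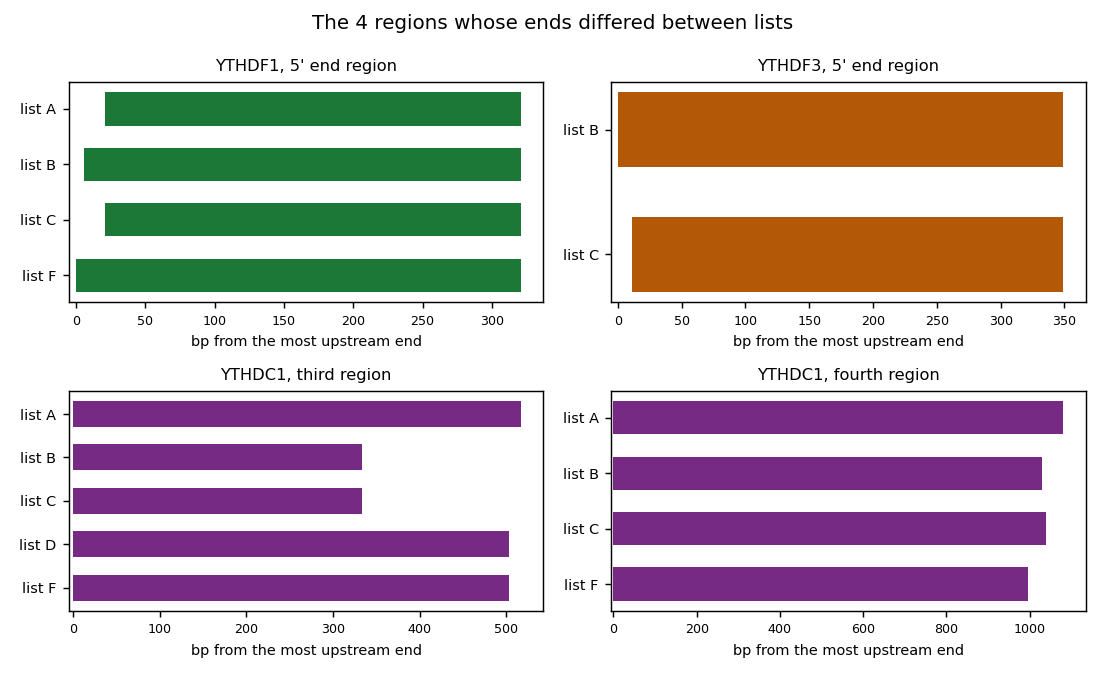
Extent of the intervals in the 4 YTH regions whose ends differed between lists (x axis, bp from the most upstream end in the direction of transcription, 1 bar per list). The upper panels, at the 5' ends of YTHDF1 and YTHDF3, share their downstream end, and the lower panels, YTHDC1, share their upstream end and differ downstream by up to 184 bp.

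YTHDC2, the helicase reader, had 0 intervals in 6 lists although its window of 81587 bp is the longest of the 5. Widening the window by 1000 bp on both sides added none. The nearest interval on either strand lay 1674 to 1676 kb downstream. Upstream it lay 24.9 kb away in B and C, 25.3 kb in D and 25.0 kb in E, but 621 kb in A and 5843 kb in F. Calls are numbered in chromosome order by their names, and the deposited lists hold only part of the numbers. Between the 2 neighbours of YTHDC2 the numbers not held by the list came to 79 (A), 52 (B), 33 (C), 346 (D), 494 (E) and 1303 (F). Where in these stretches of 1781 to 7600 kb the calls lay is unknown. An absent interval therefore says only that no call at YTHDC2 is in the lists. Expression of YTHDC2 was not analysed here, so unmethylated mRNA and too little mRNA cannot be told apart.

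Calls not held by the lists also lay within YTHDC1. Between the outermost kept intervals of that gene the skipped numbers came to 4 (A), 5 (B), 3 (C), 4 (D), 0 (E) and 1 (F). In YTHDF1 they came to 0 in C and E, 1 in A and F, and 2 in B. In YTHDF3, of which B and C held more than 1 interval, they came to 2 in both. The strand and score of these calls are not known.

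Intervals reached or approached the 5' end of the window in YTHDC1 (6 lists), YTHDF1 (4 lists) and YTHDF3 (2 lists). None lay near it in YTHDC2 or YTHDF2. The start sites of YTHDC1, YTHDF1 and YTHDC2 are shown, and YTHDF3 was left out of the start windows used. The sequences are those of RefSeq on GRCh38.p14, from 250 bases before the start to 30 after it, and capitals mark the transcribed bases. The start in this build need not be the one behind the hg19 window, and no hg19 sequence of the intervals was used. The YTHDC1 window is on the minus strand of chromosome 4, YTHDF1 on the minus strand of chromosome 20 and YTHDC2 on the plus strand of chromosome 5.
YTHDC1: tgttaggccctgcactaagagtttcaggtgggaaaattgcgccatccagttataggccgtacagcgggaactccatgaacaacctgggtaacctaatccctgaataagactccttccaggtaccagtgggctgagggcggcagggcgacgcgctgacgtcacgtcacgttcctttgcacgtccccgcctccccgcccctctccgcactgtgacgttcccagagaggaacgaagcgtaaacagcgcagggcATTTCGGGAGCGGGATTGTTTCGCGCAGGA
YTHDF1: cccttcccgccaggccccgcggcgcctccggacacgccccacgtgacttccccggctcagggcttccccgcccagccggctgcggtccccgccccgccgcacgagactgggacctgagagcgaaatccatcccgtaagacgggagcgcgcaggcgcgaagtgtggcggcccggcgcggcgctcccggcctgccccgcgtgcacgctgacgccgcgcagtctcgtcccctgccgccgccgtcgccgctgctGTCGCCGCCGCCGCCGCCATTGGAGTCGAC
YTHDC2: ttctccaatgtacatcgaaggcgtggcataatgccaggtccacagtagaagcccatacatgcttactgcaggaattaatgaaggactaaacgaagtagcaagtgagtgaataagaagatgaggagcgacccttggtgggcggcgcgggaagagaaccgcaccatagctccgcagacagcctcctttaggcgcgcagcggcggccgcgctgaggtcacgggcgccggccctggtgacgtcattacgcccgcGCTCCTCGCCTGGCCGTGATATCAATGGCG

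Start windows of 4 of the 5 genes were used, with 2 for YTHDF2. Among the windows of the 5 genes, those on chromosome 8, where YTHDF3 lies, were left out, so YTHDF3 was not searched. The shares over all windows were not restricted by chromosome. The m6A methyltransferase prefers short motifs, of which 6 forms were searched in the 50 transcribed bases of each RefSeq window. These were GGACT with its variants GGACA and also GGACC, together with GAACT and the related AGACT and finally AAACT. None of the YTHDC1, YTHDF1, YTHDC2 and YTHDF2 windows held any of them on either strand, while 43.3% of all 35116 windows did on either strand and 24.0% on the transcribed strand. The intervals nearest the 5' ends of YTHDC1 and YTHDF1 are 300 to 381 bp wide, so this says nothing of the rest of them. YTHDC2 and YTHDF2 had no interval near the 5' end. The 8-base palindrome TGACGTCA, the cyclic AMP response element bound by CREB and ATF proteins, was looked for after the sequences had been seen. It occurred in the 300-base windows of YTHDC1, beginning 97 bases before the start, and YTHDC2, beginning 18 bases before it, and in neither YTHDF1 nor YTHDF2. Of all windows, 1.85% held it. A match is a description of the letters and not a bound site.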

How the data were processed

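MeRIP-seq peak lists of H460 cells were used. The submitters' processing notes name hg19 as the genome and list the aligner HISAT2 (2.0.4). The files have 6 columns and no header (chromosome, start, end, peak name, score, strand). The authors' deposited score is 1 value per peak on a scale not given; names have the form of the MACS caller, whose version and settings, and the handling of reads that fit several places, were not given in the sources used here. No counts or depths were used, so no interval or floor is given. Windows are those of the rule for the 5 genes (hg19, 1-based). Intervals were taken at an overlap of 1 bp on the same strand. No list was assigned to an arm, and no test was made. The members and lists were chosen with earlier results of these data known. All 5 genes and all their regions are named. Other m6A genes, exons, motifs within intervals and proteins were not analysed here. Alternatives were a minimum score, equal list length, containment, either strand, a widened window, wider joining, reciprocal overlap, each list left out and similar width. Computations used matplotlib 3.10.9, scipy 1.17.1, numpy 2.4.6 and pandas 2.3.3 under Python 3.11.15. Tested on simulated lists of 2000 sites, the code recovered 11 of 11 values, and its window counts equalled those of bedtools 2.31.1 in 30 of 30 cases.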

Additional observations from a re-analysis of the deposited data

How the results depend on the processing

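For 29 values, 338 alternatives were computed and 315 stayed within the limit. The values were lists, intervals, covered bp, regions, regions held by all lists and, for the 4 genes with intervals, the highest interval's median percentile. The limit was 1.5 times for counts and lengths and the 95% Wilson interval for percentiles. The Wilson interval took the 4530 intervals of the shortest list as its sample size, so it does not measure the spread between lists. Some of the 315 could not leave the limit. Settings that only remove intervals cannot add to the 0 of YTHDC2, and leaving 1 list out takes 6 lists with an interval to 5. Containment, either strand, the widened window, joining up to 100 bp and reciprocal overlap of 50% changed no value beyond the limit. For containment and either strand this was fixed, as every interval lay inside its window and none on the opposite strand. For reciprocal overlap it was fixed too. That setting was applied only to regions held by all lists, and these had equal ends in all 6 lists. The 4 genes kept an interval in every list used, and YTHDC2 had none, under containment, either strand, the widened window, the minimum score, equal length and with each list left out. With a minimum score at the median of all lists (260.4), YTHDF1 kept 2 of 4 regions, and the median percentiles became 91.2 in YTHDF1, 91.6 in YTHDF2, 90.3 in YTHDF3 and 68.5 in YTHDC1. With lists cut to 4530 intervals they became 92.7, 91.8, 90.7 and 77.7 in that order, YTHDF1 kept 8 of 13 intervals and YTHDF3 kept 1 of 3 regions. Both settings remove low scores, which lowers percentiles by construction. Against intervals of similar width (added after seeing the data) they were 95.5, 95.3, 93.0 and 90.9. As deposited they were 96.2, 96.0, 95.3 and 85.1. With each list left out in turn, the YTHDF2 median percentile ran from 94.9 to 97.1, and YTHDC1 regions held by all remaining lists numbered 1 to 2, with 2 without E and without F. No paired analysis was possible because no list was placed in an arm and no test was made. Depth is unknown and lists differ in length, so whether an interval missing from a list was absent or undetected cannot be read.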
